A study of Homo sapiens with 4 samples.

Results

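The regions described here are the merged NSUN2 RIP-seq peaks with the highest read density in both immunoprecipitation libraries from PANC-1 cells. In RIP-seq an antibody pulls a protein down from a cell lysate, and the RNA that comes with it (the IP) is sequenced next to RNA of the untouched lysate (the input). The members were selected on their normalized read densities, which had to be 100 or more both in the IP of cells given sodium lactate at 30 mM for 24 h and in that of cells given ddH2O, the solvent control. They numbered 1856 of 116484 merged peaks (1.59%), and 114628 merged peaks fell short of the threshold in at least 1 library. Each condition had 1 IP library and 1 input library, 4 libraries in all, so no value below has a replicate error and no difference between conditions could be tested. PANC-1 is an established line from a human pancreatic ductal adenocarcinoma, and nothing in the sample labels names a genetic change in these cells. Because the threshold used the densities, the density of a member and its ratio between the libraries are given as a description.

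NSUN2 is an RNA methyltransferase that puts a methyl group on cytosine to make m5C. It is best known for its work on tRNAs, and it also methylates other noncoding RNAs and a set of mRNAs, where the sites often lie in a CNGGG motif. The m5C mark in mRNA is read by proteins that act on nuclear export and on mRNA stability. An IP library holds RNA in proportion both to its binding and to its abundance in the lysate, and a read density by itself does not separate the pair. The fold over input, which the authors' peak caller gave for each called peak, sets the IP reads against the input reads of the same place.

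The members lay on 1252 genes, which were 7.04% of the 17781 genes with a merged peak. Of these genes, 1201 were protein-coding. A gene held 1 member in 838 cases, 2 in 295, 3 in 76, 4 in 24 and 5 or 6 in 19. Reads were counted in windows of 2000 bases around the peak summit, and 891 members shared part of their window with another member. Joining members with overlapping windows left 1358 separate places, the largest with 5 members. The median density of the members was 196 reads per kb with lactate and 184 with ddH2O, against 2.84 and 3.74 over all merged peaks. Before normalization the median member window held 269 lactate reads and 532 ddH2O reads, and the lowest held 143 and 274, while the median window of all merged peaks held 5 and 7.

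A short sequence inside a few members can be shown, because 8 miRNA hairpins of the RefSeq table (GRCh38.p14) lay whole inside a called member peak. All 8 lay on the strand of the host gene, and 7 of the hosts were protein-coding genes, the other being the processed pseudogene ENSG00000283041. They are shown because a hairpin inside a peak marks a place where reads of the host transcript and of the miRNA precursor fall together. The mature sequences read 5' to 3', and the capitals mark the seed (bases 2 to 8).
hsa-miR-4751 (chr19:49933073-49933096, plus strand, ATF5 exon): aGAGGACCcguagcugcuagaagg
hsa-miR-3654 (chr7:133034860-133034878, minus strand, ENSG00000283041 exon): gACUGGACaagcugaggaa
hsa-miR-6858-5p (chrX:154450320-154450341, plus strand, FAM50A exon): gUGAGGAGgggcuggcagggac
hsa-miR-1825 (chr20:32237830-32237847, plus strand, POFUT1 3' UTR): uCCAGUGCccuccucucc
hsa-miR-7111-5p (chr6:35470509-35470530, plus strand, RPL10A exon): uGGGGGAGgaaggacaggccau
hsa-miR-7111-3p (chr6:35470558-35470579, plus strand, RPL10A exon): aUCCUCUCuucccuccucccag
hsa-miR-6805-5p (chr19:55388186-55388207, plus strand, RPL28 exon): uAGGGGGCggcuuguggagugu
hsa-miR-6805-3p (chr19:55388220-55388242, plus strand, RPL28 exon): uUGCUCUGcucccccgcccccag
hsa-miR-6807-5p (chr19:58550285-58550306, plus strand, TRIM28 exon): gUGAGCCAguggaauggagagg
hsa-miR-6807-3p (chr19:58550354-58550376, plus strand, TRIM28 exon): cACUGCAUuccugcuuggcccag
hsa-miR-4721 (chr16:28843927-28843948, minus strand, TUFM exon): uGAGGGCUccaggugacggugg

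No pair of these mature miRNAs shared a seed. The letters CNGGG occurred on the transcribed strand of 6 of the 8 hairpins (75%), against 42.4% of the 1562 hairpins of the table, and with 8 hairpins this is a description. Matches on the other strand were not counted. A match does not show a methylated site. The member on RPL28, a protein of the large ribosomal subunit, was the densest of the 8, with 1096 reads per kb with lactate and 660.4 with ddH2O, while that on FAM50A had 134 and 164. The log2 ratios of lactate over ddH2O for the 8 members lay between -0.29 (FAM50A) and 0.73 (RPL28).

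By region the members differed from the rest of the merged peaks. Of the members, 983 lay in 3' UTRs, 53.0% (95% Wilson interval 50.7 to 55.2%), against 11.9% of all merged peaks. Exons, a word the deposited annotation uses for coding sequence and for noncoding transcripts alike, held 814 (43.9%, 41.6 to 46.1%), against 20.3% of all. Introns held 41 (2.21%, 1.63 to 2.98%), although they held 58.6% of all merged peaks. The 5' UTRs held 12 (0.647%, all merged peaks 1.53%), and 6 members were intergenic (0.323%, all merged peaks 7.75%). Put the other way, 7.12% of all 3' UTR peaks, 3.44% of exon peaks and 0.0601% of intron peaks were members. The intervals cover counting error only, since peaks of a library are not replicates.

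**Figure D1:**
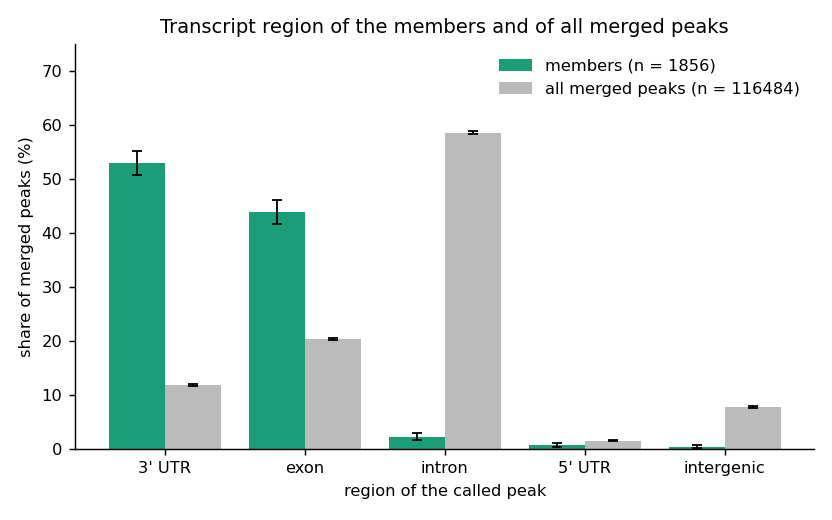
Bars give the share of merged peaks (%) in each transcript region, in green for the 1856 members and in grey for all 116484 merged peaks, with 95% Wilson intervals for counting error. The 3' UTR bar reaches 53.0% for members and 11.9% for all merged peaks, while the intron bar falls from 58.6% to 2.21%.

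The members also sat close to the 3' ends of genes. Of 1747 members on protein-coding genes with a RefSeq span, 54.2% had their summit within 2000 bases of the gene's annotated end, against 9.27% of all such merged peaks. Among exon and UTR peaks alone the shares were 55% and 24.8%. The called peaks were longer, with a median of 476 bases against 232, and 15 members were longer than the window in which reads were counted. The longest, 4656 bases, lay on the unnamed lncRNA ENSG00000274383, followed by a 3' UTR peak of 4201 bases on ANKRD11, which encodes a chromatin regulator. Both peak lists held 1433 of the members (77.2%, all merged peaks 22.6%). A further 391 (21.1%, all 59.4%) were called with ddH2O only and 32 (1.72%, all 18.0%) with lactate only.

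At the top of the range stood a pair of RNAs far apart from the others. MT-RNR2, the 16S rRNA of the mitochondrial ribosome, had a peak on chromosome MT from 1946 to 2447 with a normalized density of 12718100 reads per kb with lactate and 894950 with ddH2O. Its window held about 7681292 lactate reads and 5927141 ddH2O reads, which were 78.7% and 62.0% of the reads over all windows. MALAT1, an abundant nuclear lncRNA of splicing speckles, had a peak on chromosome 11 from 65499535 to 65499832 with 151574 and 19235 reads per kb. It held about 129762 lactate reads and 89873 ddH2O reads. The next densest window by reads held 4183 lactate reads (FBL) or 10792 ddH2O reads (HSP90AA1). The folds over input were 3.28 and 3.35 for MT-RNR2 and 1.56 and 1.19 for MALAT1, with lactate and ddH2O respectively. The medians over all merged peaks with a called peak in that list were 3.24 and 3.03, so MT-RNR2 lay slightly above them and MALAT1 below.

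**Figure D2:**
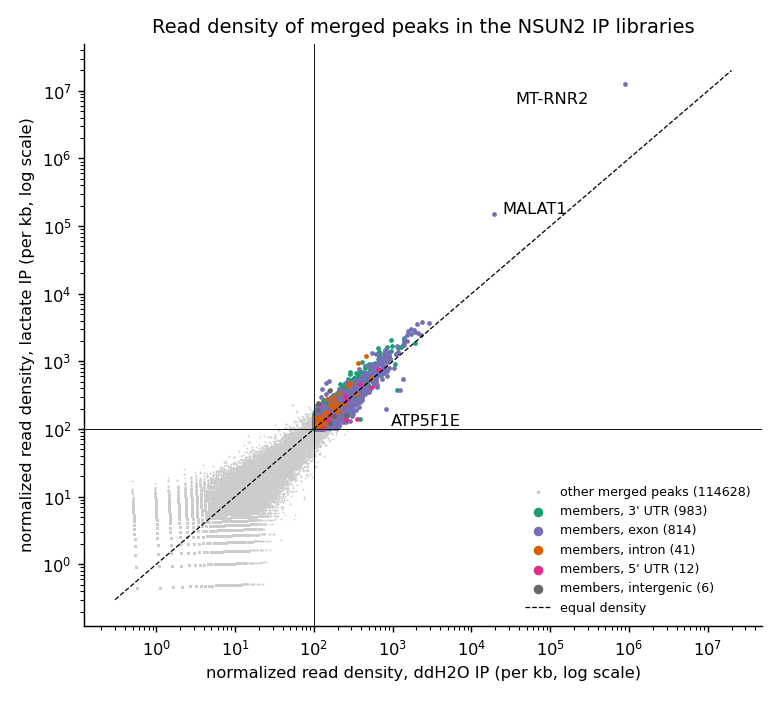
Each point is a merged peak, with its normalized read density (reads per kb, log scales) in the ddH2O IP on the x axis and in the lactate IP on the y axis. Solid lines mark the threshold of 100, colours mark the region of the 1856 members, and MT-RNR2 and MALAT1 stand above all others in both libraries while among the members ATP5F1E lies furthest below the dashed line of equal density.

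The other densest members lay on protein-coding genes. HSP90AA1, the stress-inducible cytosolic HSP90 chaperone, had an exon peak on chromosome 14 from 102084746 to 102086118 with 3737 reads per kb with lactate and 2924 with ddH2O. FBL, the methyltransferase of box C/D snoRNPs, had an exon peak with 3829 and 2346. NUCKS1, a nuclear DNA-binding phosphoprotein, had one with 3556 and 2021. Outside MT-RNR2 and MALAT1 no other gene had a denser member than these 3 in the lactate library, and HSP90AA1 and FBL also led in the ddH2O library, ahead of KRT18.

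KRT18, a keratin of simple epithelia, reached 2455 reads per kb with lactate and 2254 with ddH2O. MAP1B, a microtubule-associated protein best known from neurons, reached 2622 and 2095. RACK1, a scaffold protein of the small ribosomal subunit, reached 2867 and 1840.1, and ATF4, the transcription factor of the integrated stress response, 2707 and 1939.7. HSP90AB1, the constitutive HSP90, reached 2527 and 1707. The reads behind these densities ran in the other direction. HSP90AA1 had 4049 lactate reads (95% exact Poisson interval 3925 to 4176) and 10792 ddH2O reads (10589 to 10998) before normalization, and the ddH2O count was the larger one for each of the 8 coding genes named here and in the paragraph before.

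Both libraries reached 1000 reads per kb at 30 members on 23 genes. At the other end, the members just inside the threshold lay on EBLN3P (131 with lactate and 100.03 with ddH2O), DIAPH1 (100.1 and 111) and ATP2B1 (100.3 and 100.1). The merged peaks just outside it lay on CMTM3 (113 and 99.9), SLC66A2 (104 and 99.9) and MRPS15 (99.9 and 126), so membership at the edge turned on less than 1 read per kb.

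Density and fold over input were different rankings. The median fold of the members was 3.73 with lactate and 4.06 with ddH2O, against 3.24 and 3.03 over all merged peaks with a called peak in that list. It changed little with density. Members with a mean density of 100 to 200 had medians of 3.78 and 4.14 with lactate and ddH2O. Those of 200 to 500 had 3.69 and 4.03, those of 500 to 1000 had 3.87 and 3.44, and the 41 members between 1000 and 10000 had 4.32 and 4.14. Far more members than merged peaks overall had a q-value below 0.05, namely 94% against 42.7% with lactate and 97.0% against 48.5% with ddH2O. A q-value depends on the number of reads, and the rule required many.

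The highest folds belonged to other genes than the highest densities. In the lactate list they were 46.9 on the 3' UTR of CACNG8, an AMPA receptor auxiliary subunit, 41.0 on an exon of KAT6B, a histone acetyltransferase, 41.0 on an intron of the lncRNA PVT1, 34.0 on MAP1B and 32.2 on EPB41L2, a membrane skeleton protein. In the ddH2O list they were 78.5 on SLC5A3, a myo-inositol transporter, 46.3 on the kinase WNK1, 43.5 on the RNA helicase DDX27, 41.7 on MAP1B and 40.7 on SSRP1, a subunit of the histone chaperone FACT. MAP1B was the only gene among the 10 densest that was also among these leaders. The folds of a peak could differ between the libraries, as with 19.6 with lactate for SLC5A3 and 21.2 with ddH2O for CACNG8. SLC5A3 had only 201 lactate reads and 282 ddH2O reads in its window.

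At the low end, several dense members barely exceeded their input. RPL35, a protein of the large ribosomal subunit, had 1258 reads per kb with lactate and 897 with ddH2O, with a called peak in the ddH2O list only and a fold of 1.06 there. RPL8 had a fold of 1.18 with ddH2O, and ATF4 had 1.29 with lactate and 1.68 with ddH2O. The 391 members called with ddH2O only had a median fold of 1.99, against 5.16 for members in both lists. Whether RNA abundance accounts for the density of such peaks was not tested, since the input reads per window were not used here.

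**Figure D3:**
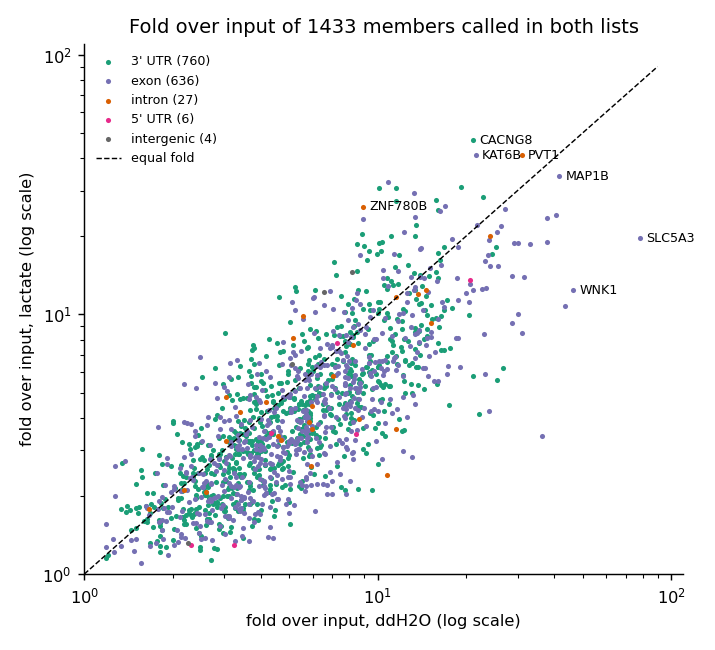
Each point is 1 of the 1433 members called in both lists, with the fold over input in the ddH2O library on the x axis and in the lactate library on the y axis (log scales), coloured by region. Most points lie under the dashed line of equal fold, as 370 members had the larger fold with lactate, and SLC5A3 stands furthest to the right.

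The direction of the difference between the IP libraries depended on how the libraries were put on 1 scale. By the deposited normalized densities, the log2 ratio of lactate over ddH2O had a median of 0.12 among the members (quartiles -0.12 and 0.38), and 1197 members (64.5%) were above 0. The median over all merged peaks was -0.50. When reads were instead scaled by each library's sum, with MT-RNR2 and MALAT1 taken out of that sum, the median of the members was -0.11, with 703 members (37.9%) above 0, and that of all merged peaks was 0.07. The members thus stood 0.61 above the median of all merged peaks by the former scale and 0.17 below it by the latter. Another measure, the ratio of the folds over input in 1433 members called in both lists, had a median log2 value of -0.40, against -0.18 over all merged peaks called in both lists, and 370 members were above 0. The normalization behind the densities took off a straight line in the mean density, which added 0.92 to the log2 ratio at a density of 100, 1.07 at the members' median, 1.77 at HSP90AA1 and 3.45 at MT-RNR2, but 0.05 at the median of all merged peaks. Before any scaling, 12 members (0.647%) had more lactate reads than ddH2O reads, against 25.4% of all merged peaks.

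With either scale the members varied less than merged peaks at large. By normalized densities 29 members (1.56%) were higher with lactate by more than 2-fold, against 13.9% of all merged peaks, and 8 (0.431%) were lower, against 38.6%. By library sums the counts were 7 higher (all merged peaks 24.5%) and 23 lower (all merged peaks 20.5%). The windows of the members hold far more reads than the median window of 5 and 7 reads, and the rule required both libraries to reach 100, so a narrower spread follows from the selection. The densest members had the highest normalized ratios. The median log2 ratio was 0.06 at a mean density of 100 to 200, 0.16 at 200 to 500, 0.33 at 500 to 1000 and 0.50 at 1000 to 10000, while by library sums it fell from -0.08 to -0.14, -0.18 and -0.20.

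**Figure D4:**
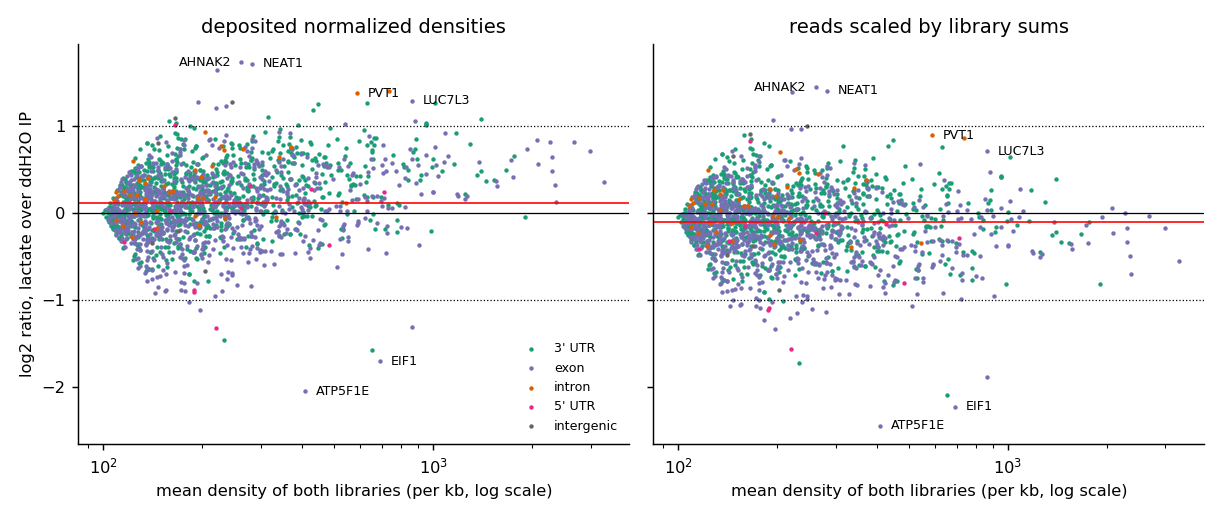
Log2 ratio of lactate over ddH2O for 1854 members (MT-RNR2 and MALAT1 left out) against the mean density of both libraries (log scale), by the deposited normalized densities on the left and by reads scaled by library sums on the right. Red lines are the members' medians, 0.12 and -0.11, dotted lines mark 2-fold, and the rise with density on the left is absent on the right.

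Members that were more than 2-fold higher with lactate by normalized densities comprised 13 in 3' UTRs, 11 in exons, 2 in introns, 1 in a 5' UTR and 2 intergenic ones. Of the 29, 9 were not on a protein-coding gene. The highest ratios after MT-RNR2 (log2 ratio 3.83) and MALAT1 (2.98) were those of AHNAK2, NEAT1 and ENSG00000274422. AHNAK2, a very large scaffold protein, had 638 lactate reads and 426 ddH2O reads in its exon window, densities of 476 and 143, and a log2 ratio of 1.73 (95% counting interval 1.55 to 1.91). NEAT1, the lncRNA that builds paraspeckles, had 679 and 466 reads, densities of 509.8 and 156, and a ratio of 1.71 (1.54 to 1.88). The unnamed lncRNA ENSG00000274422, which lies in the RefSeq span of the immunoglobulin lambda locus, had 531 and 368 reads and a ratio of 1.64. These 5 were among the 7 that were also past 2-fold by library sums, at log2 ratios of 1.24 for MT-RNR2, 1.39 for MALAT1, 1.44 for AHNAK2, 1.40 for NEAT1 and 1.39 for ENSG00000274422. The other members of the 7 were ENSG00000274383, at 1.06, and the intergenic member on chromosome 19 that starts at 40025653, at 1.003.

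The remaining 22 stayed above 0 by library sums but were not past 2-fold. PNISR, an SR-related splicing protein, had a 3' UTR member at 977 reads per kb with lactate and 407 with ddH2O, a log2 ratio of 1.26 that became 0.76 by library sums. LUC7L3, a U1 snRNP-associated splicing factor, had 5 members with log2 ratios from 0.39 to 1.29. Its exon member had 1633 lactate reads and 1818 ddH2O reads. F2R, the thrombin receptor PAR1, had a ratio of 1.18 (837 and 890 reads), IER3, an immediate early response gene, 1.10 (609 and 650), and the casein kinase gene CSNK1E 1.22 and 1.21 at its pair of exon members. MYADM, a myeloid-associated membrane protein, had 1566 reads per kb with lactate and 652 with ddH2O. PNISR, F2R, IER3, CSNK1E and MYADM lay outside the naming rule and were chosen after their values were seen.

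Lower members were fewer than higher ones by normalized densities, but by library sums 23 were lower and 7 higher. The 8 that were lower by normalized densities stayed past 2-fold by library sums. All 8 lay on protein-coding genes, 6 genes in all, with 5 in exons, 2 in 3' UTRs and 1 in a 5' UTR. The windows of the pair on ATP5F1E and of the pair on EIF1 overlap and share reads. A lower member can also share its window with a denser member that is not past 2-fold, as the one on EIF3A does. With 1 peak kept per group of overlapping windows, the densest, 4 lower members remained. ATP5F1E, the epsilon subunit of the mitochondrial ATP synthase, had an exon member at 200.3 reads per kb with lactate and 830.0 with ddH2O (258 and 2567 reads) and a 3' UTR member at 378 and 1130.3 (469 and 3638 reads). EIF1, a factor of start codon selection, had exon members at 382 and 1245 and at 549.7 and 1362. Neither EIF1 member had a called peak in the lactate list. The log2 ratios of these 4 members were -2.05, -1.58, -1.70 and -1.31, and by library sums -2.45, -2.09, -2.23 and -1.89.

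KRT10, a keratin of differentiated epidermis, had a 3' UTR member at 140.2 reads per kb with lactate and 387 with ddH2O (log2 ratio -1.46). MKKS, a chaperonin-like protein, had the 5' UTR member, at 139.5 and 348 (-1.32). DKC1, the pseudouridine synthase of box H/ACA snoRNPs, had one at 133 and 289 (-1.12), and EIF3A, the largest subunit of eIF3, had one at 127 and 259 (-1.03). Their 95% counting intervals lay below 0, and each rests on 1 library per condition.

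Within a gene the ratio was not constant. NUCKS1, EIF3A and CENPF held 6 members each, the most of any gene. On NUCKS1 the log2 ratio was 0.62 at the 3' UTR member, 0.59, 0.82 and 0.82 at the next exon members upstream, 0.06 further upstream and -0.69 at the member farthest from the gene's end, where the windows held 260 lactate reads and 922 ddH2O reads. From the 3' UTR member through these next exon members, neighbouring windows overlapped and share reads. EIF3A had ratios of 0.40, 0.35 and 0.32 at 3 neighbouring members whose windows overlapped, 0.01 near the gene's end, and -0.32 and -1.03 at the members farthest upstream. CENPF, a kinetochore protein of dividing cells, ran from -0.76 to 0.22. By library sums the ratios ran from -0.96 to 0.01 on NUCKS1, from -1.23 to -0.16 on EIF3A and from -0.90 to -0.14 on CENPF, so that all but 2 on NUCKS1 lay below 0, and the member that was lowest stayed the same on each gene.

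Across genes the ratio was higher near the gene's end about as often as it was lower. In 133 protein-coding genes whose most distant exon or UTR members lay at least 2000 bases apart, the member nearer the gene's end had the higher log2 ratio in 70 (52.6%), and the median difference was 0.02 (quartiles -0.25 and 0.38). By library sums it was higher in 68. The ratio of folds over input was higher near the gene's end in 51 of 94 genes, with a median log2 difference of 0.18. Exon and UTR merged peaks that were not members, with at least 20 reads in both libraries together, lay as far apart in 2439 genes, where the peak nearer the end was higher in 56.6% with a median difference of 0.18, or 51.1% and 0.03 by library sums. The largest differences were 1.31 on NUCKS1, 1.11 on DKC1 and 1.07 on DDX21, a nucleolar helicase, all higher near the gene's end, and -1.02 on DFFA, a subunit of the apoptotic DNA fragmentation factor. The median ratio of exon and UTR members was 0.12 within 500 bases of the gene's end, 0.12 from 500 to 2000, 0.19 from 2000 to 10000 and -0.01 beyond 10000. By library sums these medians were -0.10, -0.09, -0.06 and -0.26.

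The functional lists below were written from general knowledge with earlier results of these data known, and they are described by counts only. The share of listed genes with a member is read against 7.04% over all genes with a merged peak, noncoding ones included. That base is low for the coding lists, since 1200 of 12662 symbols of protein-coding genes with a merged peak had a member. Of the listed genes, 455 had a merged peak and 184 of these had a member. Among lists of coding genes, chaperones had the highest share, with 19 of 32 genes, followed by cytoskeletal genes with 23 of 43 and chromatin and nucleolar proteins with 14 of 28.

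Ribosomal proteins and translation factors held 27 and 36 members. Of the 79 cytosolic ribosomal protein genes listed, 35 had a merged peak and 17 a member, and 18 of the 27 members were called with ddH2O only (all merged peaks 59.4%, all members 21.1%). Their median folds over input, 2.24 and 1.93 with lactate and ddH2O, were below those of the members as a whole. Their log2 ratios ran from -0.19 to 0.92 with a median of 0.12, and -0.18 by library sums, and none was past 2-fold on either scale (all merged peaks 13.9% higher and 38.6% lower by normalized densities). RPS2 had a ratio of 0.48, RPL8 0.92 and RPL35 0.49. Among translation factors 17 of 38 genes had a member. EEF2, the translocase of elongation, had a 3' UTR member at 1973 reads per kb with lactate and 1398 with ddH2O, EEF1G, a subunit of the factor that recharges eEF1A, an exon member at 1324 and 882, and EIF5B, which joins the ribosomal subunits, an exon member at 796 and 1027. The EIF5B member had a fold of 2.94 with lactate and 8.18 with ddH2O. The 3 translation factor members past 2-fold, all lower, were those of EIF1 and EIF3A given above.

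Messenger RNAs of the translation machinery often begin with a C followed by a run of pyrimidines, the 5' terminal oligopyrimidine (TOP) motif, through which mTOR signaling and LARP1 act on their translation. The RefSeq start sequences (GRCh38.p14) were searched on the transcribed strand for a C at the annotated start followed by 4 or more C or T. A start sequence was found for 990 of the 1200 symbols of coding genes with a member, since MATR3 stands for 2 gene identifiers. It opened with such a run in 95 of these (9.60%), against 7.02% of 10028 coding genes with a merged peak and 5.14% of 27305 gene symbols searched. Among list genes with a member it did so in 8 of 11 ribosomal protein genes, 5 of 13 chromatin and nucleolar genes, 3 of 9 nuclear genes of oxidative phosphorylation, 4 of 14 translation factor genes, 3 of 17 chaperone genes, 3 of 20 cytoskeletal genes, 2 of 13 adhesion and matrix genes, 1 of 7 genes of glycolysis, 1 of 4 noncoding RNAs and 1 of 19 splicing genes, and in 0 of 15 ubiquitin and proteasome genes and 0 of 9 trafficking genes. The start lies far from most members. Among the starts searched, only 7 genes, TMCO1, CDV3, HES1, POLE3, TOP2A, SUPT5H and TCEAL9, had a member that covers it. Starts of a few translation genes with dense members are printed from 10 bases before to 20 bases from the start, with the pyrimidine run in capitals, to show what such runs look like next to a start without one.
RPL35 (chr9:124861938-124861967, minus strand): cgcctacttcCTCTTTCCCTCggagcgggc
RPL11 (chr1:23691796-23691825, plus strand): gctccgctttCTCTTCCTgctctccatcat
RPL28 (chr19:55385922-55385951, plus strand): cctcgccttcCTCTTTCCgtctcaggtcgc
EEF2 (chr19:3985444-3985473, minus strand): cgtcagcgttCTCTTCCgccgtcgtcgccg
EEF1G (chr11:62573872-62573901, minus strand): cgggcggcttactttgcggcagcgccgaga

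The runs were 11 bases in RPL35, 8 in RPL11 and RPL28 and 7 in EEF2, and EEF1G had none at the annotated start. That annotated start can differ from the start used in PANC-1 cells, so the absence of a run says only that these letters are not there.

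Splicing and hnRNP genes held 42 members on 22 of 50 genes, and 41 of the 42 were called in both lists. LUC7L3 held both of those that were higher by more than 2-fold (all merged peaks 13.9%), and by library sums 0 were. SRSF11, an SR protein, had 885 reads per kb with lactate and 575 with ddH2O, RBM25, a regulator of 5' splice sites, 654 and 659, and PNN, a component of splicing speckles, 507 and 268. Their log2 ratios were 0.62, -0.01 and 0.92. Chaperones held 39 members with a median ratio of 0.08, or -0.31 by library sums. HSPA9, the mitochondrial HSP70, had a 3' UTR member with folds of 11.7 and 14.6, and CANX, a lectin chaperone of the endoplasmic reticulum, one with 8.05 and 11.0. HSP90AA1 held 3 members, at ratios of 0.35, -0.04 and -0.08, and HSP90AB1 3, at 0.57, 0.61 and 0.33.

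Chromatin and nucleolar genes held 33 members with the highest median folds of the coding lists, 4.27 with lactate and 4.43 with ddH2O. NCL, the main nucleolar RNA-binding protein, had folds of 12.4 and 21.2, NOP56, a core box C/D snoRNP protein, 13.1 and 20.6, and MKI67, the Ki-67 antigen, 20.7 and 25.5. The 1 member of this list past 2-fold lower was that of DKC1 (all merged peaks 38.6% lower). Cytoskeletal genes held 33 members, with 1 past 2-fold lower on either scale, that of KRT10 (all merged peaks 38.6% and 20.5% lower). KRT8, the partner of KRT18, had 1356 reads per kb with lactate and 1182 with ddH2O, and the 2 members past 2-fold higher were a pair of 3' UTR members of ACTN4 with overlapping windows, an actin crosslinker, at ratios of 1.02 and 1.02 (all merged peaks 13.9% higher), which by library sums were 0.42 and 0.41.

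The metabolic lists had medians of opposite sign by normalized densities, and both medians were below 0 by library sums. The 9 members on 7 of 21 genes of glycolysis and lactate transport were all above 0, from 0.08 to 0.81 with a median of 0.44 (64.5% of all members and 34.1% of all merged peaks were above 0), and none was past 2-fold (all merged peaks 13.9% higher and 38.6% lower). By library sums their median was -0.10. ENO1 (enolase) had 1114 reads per kb with lactate and 819 with ddH2O, PKM (pyruvate kinase) 1071 and 792, ALDOA (aldolase) 913 and 654, and TPI1 (triosephosphate isomerase) 695 and 520.2. The 18 members on 12 of 46 nuclear genes of oxidative phosphorylation had a median ratio of -0.20, or -0.49 by library sums. ATP5F1B, the catalytic subunit of ATP synthase, had 1317 reads per kb and 1180.4, ATP5ME 612 and 841, and UQCRC1, a core subunit of complex III, 354 and 315. Both members past 2-fold were those of ATP5F1E (all merged peaks 38.6% lower). The lists share the same pair of libraries, so these medians are not independent of each other.

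Cell adhesion and matrix genes held 23 members on 17 of 53 genes with a median ratio of 0.36, or 0.03 by library sums. CD59, a complement inhibitor, had 1103 reads per kb with lactate and 719 with ddH2O, the integrin ITGA3 630 and 424, the tetraspanin CD151 546 and 354, and VCL, or vinculin, 422 and 390.3. Ubiquitin and proteasome genes held 26 members on 19 of 45 genes with a median of -0.14, or -0.34 by library sums, and 9 of them were above 0. PSMC4, an ATPase of the proteasome, had 785 and 886 reads per kb, PSMC5 330.3 and 362, PSMD11 463 and 312, and PSMD13 478 and 398. Membrane trafficking genes had the smallest share with a member, 10 of 42, led by the GTPase RAC1 with 996 and 692.

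Genes that the study names for the experiment or its regulators were looked up in the same table. CDCP1, a transmembrane glycoprotein tied to tumor invasion, had 2 members, both in the 3' UTR, with 300.1 reads per kb with lactate and 189 with ddH2O at 1 and 185 and 123 at the other. FOSL1, an AP-1 transcription factor, had 1 in the 3' UTR with 461 and 268 and a log2 ratio of 0.78. Before any scaling the ddH2O reads were the larger ones. The denser CDCP1 member had 405 lactate reads and 557 ddH2O reads, and the FOSL1 member had 602 and 818. STC1, a secreted glycoprotein, had no member, and its 3' UTR peak had 25.2 and 9.38. Of the m5C methyltransferases, the densest merged peak had 3.62 and 3.38 on NSUN2, 0.968 and 2.58 on NSUN3, 23.4 and 30.9 on NSUN5, 113 and 94.4 on NSUN6, 5.60 and 1.47 on NSUN7, 24.4 and 24.2 on NOP2 and 4.74 and 3.80 on TRDMT1. None of these was a member, with NSUN6 just short in the ddH2O library.

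Noncoding transcripts made up a small share of the members. Apart from the 1785 members on protein-coding genes (96.2%, all merged peaks 81.8%) and the 6 intergenic ones, 42 lay on 33 lncRNAs, 20 on 15 pseudogenes, 1 on SNORD17, 1 on MT-RNR2 and 1 on a transcript of the annotation class TEC. The lncRNA members had a median log2 ratio of 0.36, with 32 of 42 above 0 and 6 past 2-fold higher (all merged peaks 13.9%), and by library sums the median was 0.08. PVT1, a lncRNA next to MYC, had 944 reads per kb with lactate and 364 with ddH2O, with 1183 and 1160 reads and folds of 41.0 and 31.0. OIP5-AS1 had 3 members, with 364 and 262 at the densest. Of the listed nuclear and cytosolic noncoding RNAs 6 of 21 had a member, 11 members in all with a median ratio of 0.48, or 0.15 by library sums, and 6 above 0. MT-RNR2 was the single mitochondrially encoded RNA with a merged peak. SNHG5, a snoRNA host, had a pair near each other, with ratios of -0.44 and -0.43, both called with ddH2O only.

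Of the 42 lncRNA members, 23 lay over a RefSeq protein-coding gene, as did 17 of 22 on lncRNAs without a symbol. The 3 members of ENSG00000269570 lay over ZFP91, that of ENSG00000264772 over EIF4A1, that of ENSG00000271980 over CCT5 and that of ENSG00000236498 over CCT4. How the libraries kept strand is not given in the sources used here, so reads of such a lncRNA and of the coding gene at the same place cannot be told apart.

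The same holds for pseudogenes, which share sequence with their parent genes. Of 12 pseudogenes whose parent is known by name, 11 had a parent with a member of its own. RPL3P4 was denser than its parent RPL3, with 828 reads per kb with lactate and 604 with ddH2O against 251 and 251, and LRRFIP1P1 had 470.0 and 246 against 2775 and 1547 on LRRFIP1. RPL6P27 held a pair of called peaks with the same reads, 222 with lactate and 639 with ddH2O. HSP90AA2P had a ratio of -0.81 at its densest member while HSP90AA1 had 0.35. These pseudogene values are uncertain, since the counting could have split reads between the copies.

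Intron members were rare and not spread evenly. The 41 lay on 30 genes, 34 of them on protein-coding genes, and had a median log2 ratio of 0.24 with 31 above 0. The densest lay on ZNF780B, a zinc finger gene, with 1192 reads per kb with lactate and 453 with ddH2O. PVT1, the signaling adaptor gene YWHAE (568 and 524) and CD70 (483 and 287), a TNF family ligand, followed.

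Along the genome the members were densest on a part of chromosome 19. Cut into bins of 1000000 bases, an analysis chosen after the values were seen, 726 of 2763 bins with a merged peak held a member. The highest count was 30 members on 12 genes between 39 and 40 Mb of chromosome 19, where 19.1% of 157 merged peaks were members, followed by 17 in the bin before it. From 38 to 41 Mb there were 55 members on 25 genes among 461 merged peaks (11.9%, all merged peaks 1.59%). Introns there held 12 of the 41 intron members of the genome. In this stretch 5.41% of intron merged peaks were members, against 0.0426% elsewhere.

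The genes with members in that stretch included ACTN4, PAF1 (a subunit of the PAF1 complex of transcription elongation), MED29 (a Mediator subunit), SUPT5H (a subunit of the elongation factor DSIF), FBL, PSMC4, ZNF780B and AKT2 (a kinase of insulin signaling). SUPT5H had 3 intron members, at 119 to 142 reads per kb in the lactate IP, and its intron folds over input were between 1.66 and 4.69. AKT2 had a pair of 3' UTR members at 181 and 190.3 and at 365 and 250. The median log2 ratio of the 55 members was 0.28, or 0.01 by library sums, and 6 were past 2-fold higher (all merged peaks 13.9%). Both input libraries entered the folds, whose medians there were 3.95 with lactate and 3.41 with ddH2O, near those of all members. Copy number and RNA abundance in these cells were not measured here, and their part in the density of these peaks was not tested.

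The 5' UTR and intergenic members were few enough to name in part. CBX3, a heterochromatin protein, had the densest 5' UTR member, at 774 reads per kb with lactate and 655 with ddH2O. ATAD2, a bromodomain ATPase, had a pair with folds of 13.5 and 20.6 at the denser one. TMCO1, a calcium channel of the endoplasmic reticulum, had a pair at log2 ratios of -0.89 and -0.91. Among intergenic members, that on chromosome 17 from 22523282 to 22523618 lay on the RefSeq gene MTRNR2L1, a nuclear copy of MT-RNR2, with 124 and 158, and that on chromosome X from 102915370 to 102915793 lay on LINC00630. The 4 others lay on no RefSeq gene, and the densest of them, on chromosome 19 from 40025653 to 40027383, had 383 and 158.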

How the data were processed

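NSUN2 RIP-seq was done in PANC-1 cells with 1 IP and 1 input library for lactate (30 mM sodium lactate, 24 h) and for ddH2O. The submitters' processing notes name fastp 0.20.1, HISAT2 2.1.0, MACS2 2.2.7.1, bedtools 2.29.2, HOMER 4.11.1 and DiffBind, and the GRCh38 build. The authors called peaks per library against its input, and deposited for each called peak a fold (ratio) over input, a score, p- and q-values with their −log10, gene, biotype and region. The authors also deposited a table of merged peaks with a normalized signal (read density per kb) for each IP library. Its columns of the authors' log2 ratio (M value), mean log2 density and P were not used. The log2 ratio was computed from the densities, and 0 per-sample columns were left unused.

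Members had both densities at 100 or more. A merged peak took the annotation of the called peak with most shared bases (bedtools 2.31.1). Starts of the merged table are counted from 0 and were raised by 1. Reads per 2000-base window were recovered by adding back to the log2 ratio a line in the mean log2 density (slope -0.169, intercept 0.204). The densities were then multiplied by the window length, and 1 read was taken off. The recovered reads came out whole, within 0.02, for 99.998% of windows, the 2 exceptions being MT-RNR2 and MALAT1, whose reads are approximate. Recovery was run on data simulated with the same window, added read and straight line, so that run checks the computation and not these assumptions. The reads summed to 9756054 for lactate and 9553835 for ddH2O, and to 1945000 and 3536821 outside MT-RNR2 and MALAT1. For scaling by library sums, 1 read was added to each window. The depth of the inputs is unknown. Shares have 95% Wilson intervals, reads 95% exact Poisson intervals, and ratios intervals from the reads, all for counting error only.

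With 1 library per group no test was run. The members, lists and named genes were chosen with earlier results of these data known. Named were the 10 densest genes, the 5 highest and 5 lowest ratios, the 5 highest folds per list, the 5 genes with most members, 3 merged peaks on each side of the threshold, the 4 densest per list, genes the study names, and members outside protein-coding genes, of which only some are printed and a few are not reported here. Other genes in the text were chosen after their values were seen. Distances to gene ends, and start and miRNA sequences, used RefSeq of GRCh38.p14. Alternatives were other thresholds, scalings, folds and annotation rules. Scripts ran in Python 3.11.15. Intervals came from scipy 1.17.1, tables from pandas 2.3.3 over numpy 2.4.6, and plots from matplotlib 3.10.9.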

Additional observations from a re-analysis of the deposited data

How the results depend on the processing

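No paired analysis was possible because the groups share fewer than 2 replicate numbers, with a single IP library for lactate and for ddH2O, and for the same reason no replicate could be left out. The search for GC content and CNGGG in the called peaks and in their windows could not be done without a genome sequence, which was not used here. At a threshold of 50 the members numbered 4023 on 2595 genes in 2894 separate windows, and at 200 they numbered 717 on 509 genes in 527 windows, with median log2 ratios of 0.023 and 0.18, and 49 and 17 members higher and 39 and 4 lower by more than 2-fold. Requiring the threshold in either library (2505 members) or in 1 of them kept the count within 1.5 times. The median log2 ratio turned to -0.11 by library sums outside MT-RNR2 and MALAT1, to -1.0 by sums over all windows and, in an alternative added after seeing the data, to -0.40 by the ratio of folds over input, and it is 0 by construction when centred on the members. These scalings gave 7, 0, 28 and 16 higher members and 23, 924, 214 and 15 lower ones, in that order. With 1 peak per group of overlapping windows 22 were higher and 4 lower. A fold over 1.5 gave 206 higher and 59 lower, and a fold over 4 gave 2 and 1. The median fold over input was 3.97 with lactate at a q-value below 0.05, and 5.16 with ddH2O for peaks in both lists. The region shares and the protein-coding share stayed within their intervals under every annotation alternative run, and leaving out MT-RNR2 and MALAT1, also added after seeing the data, changed no direction. Single libraries, and windows that share reads, limit all of these values.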
